A study of Homo sapiens with 42 samples.

Results

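The nuclear genome supplies most of the protein subunits of the oxidative phosphorylation system, and the genes described here encode the structural subunits of complexes I to V. They were chosen by symbol prefix (NDUFA, NDUFB, NDUFC, NDUFS and NDUFV without the NDUFAF assembly factors, SDHA to SDHD, UQCR, CYC1, COX4I, COX5 to COX8, ATP5F, ATP5M and ATP5P), with a mean of at least 5 TPM over 30 libraries (TPM scales transcript abundance per length to a fixed total in each library) and without pseudogene symbols. Of the 60606 genes in the expression table, 96 carried such a symbol and 81 reached that mean. The lowest genes inside the threshold were ATP5MF-PTCD1 at a mean of 9.03 TPM, NDUFC2-KCTD14 at 12.6 TPM and NDUFV3 at 15.6 TPM, and the nearest gene outside it was NDUFA6-DT at 2.96 TPM. The 81 genes comprised 37 for complex I, 4 for complex II, 9 for complex III, 11 for complex IV and 17 for complex V, together with the supercomplex factor COX7A2L and 2 readthrough genes that join a member to its neighbour.

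The study used AC16, a human line labelled as cardiomyocyte-like, and asked how RPL3L, the striated muscle paralog of ribosomal protein RPL3, and variants of it act when RPL3 is lowered. All 10 groups received doxycycline at 1 ug/ml, and each group had 3 whole-cell polyA libraries. Cells of the shScramble group carried a doxycycline-inducible scrambled hairpin, and cells of the shRPL3 group carried an inducible hairpin against RPL3 under hygromycin selection. The other 8 groups were made from RPL3 hairpin cells by lentiviral addition of RPL3L, followed by a sort of BV421-positive cells, and expressed wild-type RPL3L (RPL3L-WT) or RPL3L with G27D, R161W, T189M, P291L, D308N, D308V or R343W. The P291L variant was labelled as itself doxycycline-inducible. The labels do not say that the libraries of a group came from separate cultures, so each p-value measures only the spread between these libraries, which may be technical.

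RPL3 stood at 1534 to 1611 TPM in shScramble and at 500 to 570 TPM in shRPL3, whereas the libraries labelled R161W held 1059, 1686 and 1570 TPM. Library 3 of shRPL3 carried RPL3L at 121 TPM, against 0.0290 and 0.0353 TPM in libraries 1 and 2. The 13 cardiomyocyte markers examined summed to only 2.40 to 6.79 TPM per library, with MYH6, MYH7, NPPA, MYL2 and NKX2-5 at a median of 0, whereas 10 fibroblast markers summed to 4129 to 6089 TPM. Along the main axis of pseudogene expression, 6 libraries stood apart from the other 24: T189M 1 and 2, R161W 1, G27D 3, and RPL3L-WT 1 and 2. The labels name no difference for these 6, which are called the second kind below. Each comparison was therefore tested in a model of the 10 groups alone and in a model with the library kind as an added term. The comparisons of shRPL3 with shScramble, and of P291L, D308N, D308V and R343W with shRPL3, lie wholly within the first kind. There the added term leaves the fold change as it is and alters only the estimated spread.

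Oxidative phosphorylation takes place in the inner mitochondrial membrane. Complexes I and II pass electrons from NADH and succinate to ubiquinone, complex III passes them to cytochrome c and complex IV to oxygen, and complex V, the ATP synthase, uses the proton gradient that complexes I, III and IV build. Complex II is wholly encoded in the nucleus, whereas the other complexes combine nuclear subunits with subunits made on mitochondrial ribosomes, and the heart depends heavily on the pathway.

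These genes were among the more abundant transcripts of AC16 cells. The median of their mean levels was 200.3 TPM, against 15.2 TPM over the 14426 genes tested. Complex IV held the highest levels, with a median of 436 TPM over its 11 genes and a maximum of 864 TPM for COX6A1, a membrane subunit of the cytochrome c oxidase. Complex V had a median of 345 TPM and the highest single gene, ATP5MF, a subunit of the membrane part of the synthase, at 1037 TPM. Complex I ranged from NDUFV3, an accessory subunit of the NADH-oxidising module, at 15.6 TPM to NDUFS5, an accessory subunit on the intermembrane side, at 526 TPM. Complex III ranged from UQCRFS1, the Rieske iron-sulfur protein, at 34.9 TPM to UQCRH, the hinge protein, at 499 TPM. Complex II was the lowest by median, at 113 TPM, and ran from SDHA, the flavoprotein that holds the succinate site, at 64.3 TPM to SDHB, the iron-sulfur subunit, at 220 TPM.

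Where a subunit has a tissue-restricted paralog, the ubiquitous form was the one expressed. COX7A1, the heart and skeletal muscle form of subunit VIIa, was listed at 0 in all 30 libraries, whereas COX7A2 lay between 366 and 515 TPM. COX6A2, the heart and muscle form of subunit VIa, was listed at 0 in 28 libraries and never exceeded 0.315 TPM, against 726 to 1003 TPM for COX6A1. COX4I2, known as the form used under low oxygen, was listed at 0 in 29 libraries, against 397 to 563 TPM for COX4I1. The testis form COX6B2 had a median of 0.206 TPM, against 532 TPM for COX6B1. NDUFA4L2, the hypoxia-induced relative of NDUFA4, had a median of 1.80 TPM and its highest values in R161W library 1 (9.31 TPM) and RPL3L-WT library 3 (5.92 TPM), whereas NDUFA4 lay between 74.2 and 134 TPM.

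Together the 81 genes made up about 2% of all TPM. Their share was 2.08 ± 0.0692% in shScramble and 2.21 ± 0.0301% in shRPL3 (mean ± SD, n = 3, as for all such values below). It was 2.12 ± 0.00803% in P291L, 2.08 ± 0.0204% in D308N, 2.05 ± 0.0557% in D308V and 2.10 ± 0.0622% in R343W. The 4 groups that mix the kinds were more spread, at 1.88 ± 0.165% (RPL3L-WT), 2.09 ± 0.203% (G27D), 1.96 ± 0.200% (R161W) and 1.82 ± 0.190% (T189M). Libraries of the first kind held 2.00 to 2.24% and those of the second kind 1.70 to 1.85%, without overlap. The share taken by the 13 mitochondrially encoded mRNAs moved with the kinds as well, at 5.49 to 10.2% in the first kind and 12.2 to 14.9% in the second. Because TPM is a share of a fixed total, its part in the lower values was not tested.

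**Figure D1:**
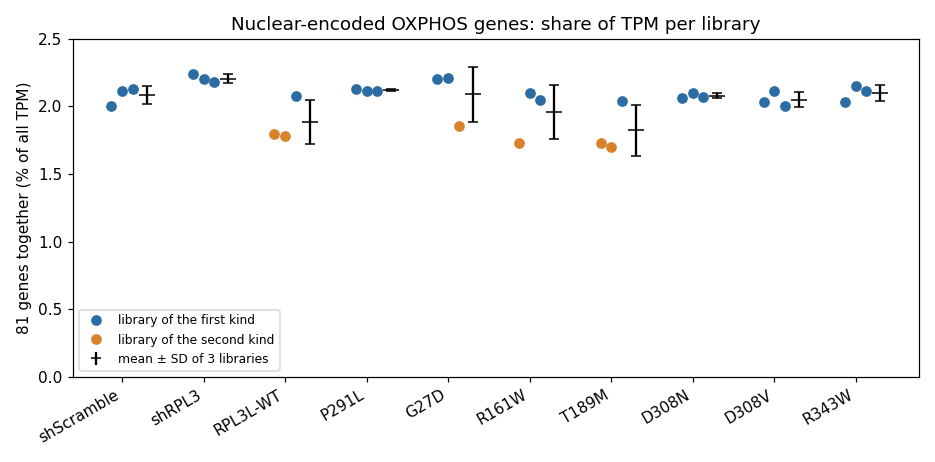
Share of all TPM held by the 81 nuclear oxidative phosphorylation genes (y axis, %) in each of 30 libraries, by group (x axis). Blue points are libraries of the first kind, orange points the 6 of the second kind, and bars are the mean ± SD of 3 libraries. The orange points lie at 1.70 to 1.85%, below all blue points at 2.00 to 2.24%.

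The comparison of shRPL3 with shScramble asks what lowering RPL3 does. Of the 81 genes, 12 rose and 1 fell, against 17.2% and 18% of all genes tested. Accessory subunits of complex I (NDUFB9, NDUFB10), the small complex III subunit UQCR10, the iron-sulfur subunit SDHB and the synthase membrane subunit ATP5MG rose by 0.30 to 0.47 on the log2 scale. SDHA alone fell, by 0.41. Passing genes made up 16.0% of the members, against 35.2% of all genes tested, and the difference between these shares was not tested. The members' median log2 fold change was 0.04, against -0.01 over all genes. Fold changes are on the scale of log2(TPM + 1), and the tests are limma's with Benjamini-Hochberg adjustment over all genes tested.

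Complex II split. SDHA read 93.8, 82.9 and 91.7 TPM in shScramble and 69.6, 64.8 and 66.4 TPM in shRPL3. SDHB read 192, 186 and 193 TPM in shScramble and 238, 236 and 231 TPM in shRPL3. Neither gene's groups overlapped: every knockdown library lay below the scrambled ones for the flavoprotein and above them for the iron-sulfur protein, with which it forms the soluble head of succinate dehydrogenase. The change was -0.41 for SDHA (SE 0.08, adjusted p 0.000146) and 0.30 for SDHB (SE 0.09, adjusted p 0.0112). The membrane anchors SDHC and SDHD had changes of -0.05 and 0.02 and passed neither model. In GENCODE 29 on GRCh38, SDHA lies at chromosome 5, 218241 to 256700, on the plus strand, and SDHB at chromosome 1, 17018722 to 17054170, on the minus strand. Entries for 4 SDHA pseudogenes, near-copies between which reads could be shared, summed to 52.1 ± 2.25 TPM in shScramble and 40.0 ± 2.94 TPM in shRPL3. The SDHA level is uncertain to that extent, and both means were lower in shRPL3.

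In complex I, 6 of 30 accessory subunits rose and none fell, a share close to the 17.2% of all genes called higher. None of 7 core subunits passed in the model of the groups alone, nor did any have an unadjusted p under 0.05, against 43.5% of all genes tested. Between library kinds 5 of these 7 were lower in the second kind and 1 higher, and that difference is part of the spread in this model. With the kind term NDUFS3 alone among them passed. The difference between accessory and core subunits was not tested. NDUFB9, an accessory subunit of the membrane arm, read 209, 227 and 222 TPM in shScramble and 303, 320 and 290 TPM in shRPL3. All 3 knockdown libraries were higher, and the change was 0.47 (SE 0.06, adjusted p 1.73e-06). NDUFB10, another membrane arm subunit, read 133, 121 and 125 TPM in shScramble and 169, 172 and 174 TPM in shRPL3, again without overlap (0.44, SE 0.15, adjusted p 0.0251). The NDUFB10 gene (chromosome 16, 1959508 to 1961975, plus strand) lies 1901 bases from RPL3L (1943974 to 1957606, minus strand). NDUFB3, NDUFS6, NDUFA12 and NDUFA6 rose by 0.29, 0.29, 0.20 and 0.19. The core subunits NDUFV1, which binds the flavin that accepts electrons from NADH, and NDUFS1, which carries iron-sulfur clusters, had changes of -0.05 and -0.14.

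In complex III only UQCR10 passed, reading 215, 222 and 232 TPM in shScramble and 299, 280 and 281 TPM in shRPL3. Its knockdown libraries all lay above the scrambled ones (0.36, SE 0.08, adjusted p 0.00192). The catalytic UQCRFS1 and the core protein UQCRC1 changed by -0.04 and -0.05 without passing. No gene of complex IV passed in the model of the groups alone, and 2 of its 11 had an unadjusted p under 0.05, against 43.5% of all genes tested. Between library kinds 9 of these 11 genes were lower in the second kind and 1 higher. That difference is part of the spread in this model, so the lack of calls does not show that the complex was unchanged. COX4I1 and COX5B, nuclear subunits of the oxidase, had changes of -0.05 and 0.01.

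In complex V, 3 of the 9 stalk and membrane subunits rose. ATP5MG, the membrane subunit g near the dimer interface, read 198, 228 and 221 TPM in shScramble and 292, 295 and 258 TPM in shRPL3 (0.38, SE 0.07, adjusted p 0.000123). ATP5MJ, a small proteolipid of the same part, and ATP5PB, the peripheral stalk subunit b, rose by 0.31 and 0.21. None of the 5 subunits of the F1 part, the catalytic head with its central rotor subunits, passed in this model. Of them, 1 had an unadjusted p under 0.05, against 43.5% of all genes tested. Between library kinds 4 of these 5 were lower in the second kind, and that difference is part of the spread in this model. The readthrough gene ATP5MF-PTCD1 was also called (0.58, SE 0.20, adjusted p 0.0253), and reads could be split between it and the abundant ATP5MF, so its level is uncertain.

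Adding the library kind tightened the spread and raised the count to 29 higher and 9 lower, against 24.4% and 24.5% of all genes in that model. In the F1 part of the synthase, 1 of 5 genes was then higher and 3 lower. ATP5F1A and ATP5F1B, the alpha subunit and the catalytic beta subunit, passed with changes of -0.16 (adjusted p 0.000642) and -0.14 (adjusted p 0.000185), and ATP5F1D with -0.31 (adjusted p 0.0367), whereas ATP5F1E passed with 0.22 (adjusted p 0.0164). Of the stalk and membrane subunits, 8 of 9 passed with higher values and none with lower ones. ATP5F1A read 345, 363 and 350 TPM in shScramble and 315, 317 and 312 TPM in shRPL3, so the groups did not overlap although the change was small.

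The 3 genes of subunit c encode the same mature protein of the rotor ring and moved apart in that model. ATP5MC1 read 154, 170 and 154 TPM in shScramble and 208, 207 and 213 TPM in shRPL3 (0.39, adjusted p 2.87e-07 with the kind term and 0.0932 without). ATP5MC3 read 323, 336 and 337 TPM in shScramble and 300, 305 and 283 TPM in shRPL3 (-0.17, adjusted p 0.00137 with the kind term). ATP5MC2, the most abundant of them, had a change of 0.04. In complex III, CYC1, the cytochrome c1 subunit, passed with 0.23 (adjusted p 0.00183), and in complex I NDUFS3 was the only core subunit to pass, with 0.18 (adjusted p 0.00415). Over the whole set, the 2 groups of libraries did not overlap for 39 of 81 genes, against 54.5% of all genes tested.

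NDUFB9, ATP5MG, UQCR10, SDHB and SDHA kept their call in each of the 22 alternatives run. The calls for NDUFB10, ATP5MJ and NDUFS6 were lost with median-ratio scaling (adjusted p 0.071, 0.096 and 0.1), and without shRPL3 library 3 the count fell to 9 in the model of the groups alone and was 36 with the kind term.

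**Figure D2:**
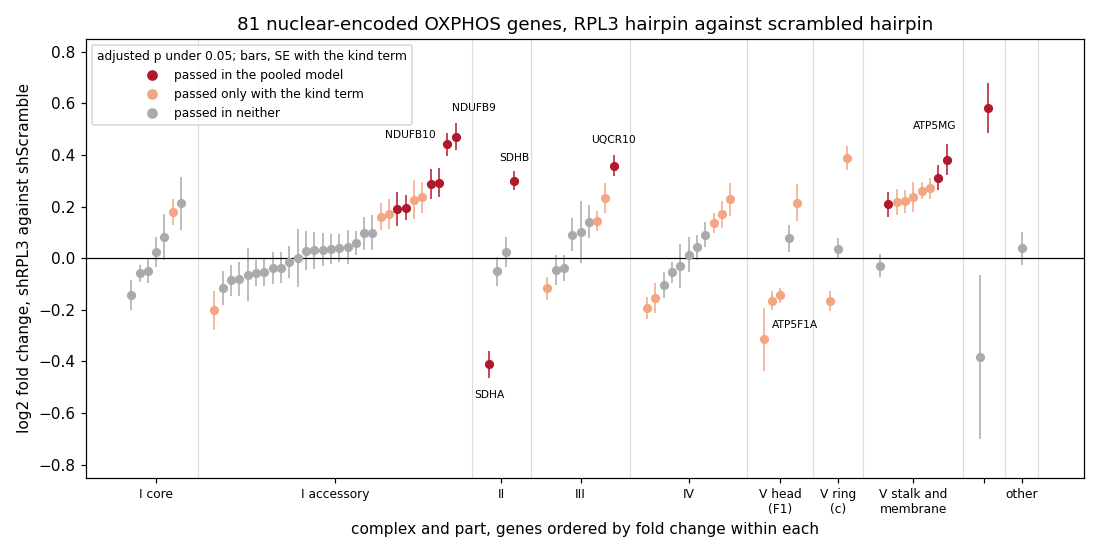
Log2 fold change of shRPL3 against shScramble (y axis, log2(TPM + 1) scale) for each of the 81 genes, by complex and part (x axis). Dark red points passed in the model of the groups alone, light orange points passed only with the library kind as a term, grey points passed in neither, and bars are standard errors with the kind term. SDHA at -0.41 and SDHB at 0.30 lie on opposite sides of 0, and the stalk and membrane subunits of complex V lie mostly above 0.

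Promoter sequence was examined for the members with a matched promoter, whether or not they moved. RefSeq (GRCh38.p14) promoters, from 250 bases before to 50 after the start, matched 66 of the 81 genes. The NRF1 motif (GCGCA, any base, then GCGC), searched on both strands as were the others, was present in 24.2% of them, against 14.0% of the tested genes with a promoter and 6.98% of all promoters. The ETS motif CCGGAAG was present in 31.8%, against 23.4% and 12.2%, and the YY1 motif AAGATGGCG in 13.6%, against 4.92% and 2.14%. TATAAA was present in 9.09%, against 8.20% and 14.0%. The ETS and YY1 letters share AAG and can overlap. NRF1 and ETS-family GABP are textbook regulators of this gene set. The 16 genes with the NRF1 letters had a median log2 fold change of 0.13 in shRPL3 against shScramble, with 3 called higher and 1 lower, and the 50 without had 0.04, with 7 higher and none lower. The stretches below belong to 4 of the genes that rose. Over the whole window NDUFA12 and UQCR10 held the NRF1 letters, SDHB held the ETS and YY1 letters, and NDUFB10 held none of the 4 motifs. Each is the longest part of the 250 bases before the start that lies outside GENCODE 29 exons, 5′ to 3′ on the gene's strand, with capitals marking a motif match. They lie at chr12:95003771-95003947 (minus strand), chr1:17054171-17054282 (minus strand), chr16:1959288-1959507 (plus strand) and chr22:29767119-29767368 (plus strand).
NDUFA12: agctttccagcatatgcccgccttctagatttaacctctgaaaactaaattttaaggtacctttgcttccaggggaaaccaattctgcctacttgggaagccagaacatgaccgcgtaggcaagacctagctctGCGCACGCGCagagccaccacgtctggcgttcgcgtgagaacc
SDHB: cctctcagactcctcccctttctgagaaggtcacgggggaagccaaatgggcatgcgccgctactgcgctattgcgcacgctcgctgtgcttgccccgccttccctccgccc
NDUFB10: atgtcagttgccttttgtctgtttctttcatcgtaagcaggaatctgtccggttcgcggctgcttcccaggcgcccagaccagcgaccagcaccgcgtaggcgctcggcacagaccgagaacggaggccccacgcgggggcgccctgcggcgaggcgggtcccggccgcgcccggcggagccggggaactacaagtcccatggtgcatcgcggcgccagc
UQCR10: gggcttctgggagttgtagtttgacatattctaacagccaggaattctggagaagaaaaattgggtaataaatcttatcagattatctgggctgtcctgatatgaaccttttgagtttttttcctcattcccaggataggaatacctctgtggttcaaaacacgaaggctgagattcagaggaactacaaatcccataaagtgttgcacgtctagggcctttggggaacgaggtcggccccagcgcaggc
NDUFA12 held the NRF1 letters 116 bases before its start. No match of UQCR10 or SDHB lies wholly within the printed stretch, and that of UQCR10 ends in letters that fit the opening of the NRF1 motif.

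Genes that serve these complexes were counted from the same model, in which 17.2% of all genes were called higher and 18% lower, and no list was tested against another. Of 53 assembly factors, which fit subunits and cofactors together, 20 rose and 3 fell in shRPL3 against shScramble, with a median log2 fold change of 0.25. NDUFAF2, a late complex I assembly factor, stood at 114 ± 10.1 TPM against 62.0 ± 3.92 TPM (0.86, adjusted p 0.000111). COX19, linked to copper handling for complex IV, rose by 0.89 (adjusted p 0.00282), and TMEM126A, TMEM126B and COA7 by 0.76, 0.64 and 0.72. Of 13 tested regulators of mitochondrial biogenesis, 6 rose and 1 fell. TWNK, the mitochondrial DNA helicase, rose by 0.94, GABPB1 by 0.76 and NRF1 itself by 0.41, whereas TFB1M, the methyltransferase of mitochondrial ribosomal RNA, fell by 0.47.

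Electron carriers and coenzyme Q enzymes split evenly, with 3 of 12 higher and 3 lower. CYCS, cytochrome c, stood at 342 ± 15.3 TPM in shRPL3 against 209 ± 18.5 TPM in shScramble (0.71, adjusted p 0.000138), and COQ8B fell by 0.55. Of 6 genes for ATP export and synthase control, none rose and 3 fell: the uncoupling protein family member UCP2 (log2 fold change -1.56) and the adenine nucleotide carriers SLC25A6 (-0.61) and SLC25A4 (-0.44). Of 12 citric acid cycle genes, 4 fell and none rose, among them OGDH of the 2-oxoglutarate dehydrogenase complex by 0.61. The 13 mitochondrially encoded subunits, the partners of these proteins, fell in 7 cases and rose in none, with a median of -0.48. Among them MT-ND4, MT-ATP6 and MT-CO1 fell by 0.87, 0.87 and 0.64. When mitochondrially encoded entries, RPL3, RPL3L and the constructs were removed and TPM rescaled, the nuclear subunits had a median of -0.02, with 7 higher and 3 lower. All genes tested then had a median of -0.06, with 15.2% higher and 22.5% lower. Smooth muscle markers summed to 282 to 309 TPM in shScramble and 355 to 369 TPM in shRPL3, and fibroblast markers to 5317 to 5833 and 5011 to 5352 TPM, and their part in these changes was not tested. In bulk RNA, fewer cells of a type and less RNA per cell cannot be told apart.

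The comparisons of the P291L, D308N, D308V and R343W lines with shRPL3 ask what each RPL3L variant adds to the same hairpin cells. They share the shRPL3 libraries. The lines differed from shRPL3 in more than the variant, as they also went through the lentiviral addition and the sort. RPL3 stood at 500 to 570 TPM in shRPL3 and 568 to 571 TPM in D308V. It stood at 658 to 685 TPM in P291L, 680 to 714 TPM in D308N and 724 to 737 TPM in R343W. The part of these differences in the members' changes was not tested. The called members were almost all lower: 1 higher and 6 lower in P291L (4.67% and 15% of all genes tested), 0 and 10 in D308N (5.73% and 12.4%), 0 and 10 in D308V (5.19% and 11.1%), and 1 and 10 in R343W (7.22% and 12.4%). In the model with the kind term the counts were 4 and 23 in P291L (8.52% and 27.3%), 5 and 27 in D308N (11.2% and 22.2%), 2 and 33 in D308V (9.67% and 22.4%), and 7 and 26 in R343W (12.7% and 22.8%). Under the kind term and median-ratio scaling together, P291L had 13 and 8 (14.6% and 14.9% of all genes). D308N had 7 and 17 (14.8% and 17%), D308V 4 and 16 (14.2% and 13.9%), and R343W 11 and 17 (16.6% and 17.2%). The balance of the members thus turned over in P291L only, and its difference from all genes was not tested.

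UQCRFS1, the Rieske protein of complex III (chromosome 19, 29205321 to 29213541, minus strand), read 43.2, 41.5 and 40.4 TPM in shRPL3. It read 31.1, 31.6 and 31.1 TPM in D308N, 30.7, 32.1 and 31.5 TPM in D308V, 31.7, 34.1 and 30.9 TPM in R343W, and 35.3, 34.9 and 35.3 TPM in P291L. All 12 variant libraries lay below all shRPL3 libraries. The change was -0.40 in D308N (SE 0.09, adjusted p 0.00321), -0.40 in D308V (SE 0.09, adjusted p 0.00444) and -0.36 in R343W (SE 0.09, adjusted p 0.00697). In P291L it was -0.24 and passed only with the kind term (adjusted p 0.0751 without and 0.000637 with).

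ATP5F1C, the central rotor subunit gamma of the synthase (chromosome 10, 7788129 to 7807815, plus strand), read 280, 283 and 268 TPM in shRPL3. It read 226, 206 and 214 TPM in D308N, 214, 227 and 219 TPM in D308V, and 230, 220 and 199 TPM in R343W, whereas P291L read 271, 255 and 257 TPM and overlapped shRPL3. The change was -0.36 in D308N (SE 0.08, adjusted p 0.00152), -0.33 in D308V (adjusted p 0.00398), -0.36 in R343W (adjusted p 0.00159) and -0.09 in P291L (adjusted p 0.478). The alpha subunit ATP5F1A, at 315, 317 and 312 TPM in shRPL3, read 253, 251 and 255 TPM in D308N, 251, 253 and 254 TPM in D308V, and 241, 242 and 236 TPM in R343W. These values did not overlap those of shRPL3. In the model of the groups alone only the R343W change passed (-0.39, adjusted p 0.0275), and that call was lost whenever 1 of its libraries or of the shRPL3 libraries was left out. With the kind term the changes of -0.31 in D308N and -0.32 in D308V passed as well (adjusted p 4.49e-07 and 4.69e-07).

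Several accessory subunits of complex I were lower than in shRPL3. For those given here, a test between lines is reported only for D308N against D308V. There NDUFS5, NDUFA5, NDUFA10 and NDUFC1 passed in neither model. In the model of the groups alone NDUFA10 differed by -0.13 (limma adjusted p 0.418) and NDUFC1 by 0.11 (adjusted p 0.586). NDUFS5 (chromosome 1, 39026318 to 39034636, plus strand) read 567, 548 and 522 TPM in shRPL3, 428, 433 and 442 TPM in D308N, and 442, 452 and 424 TPM in D308V. It read 533, 586 and 580 TPM in R343W and 538, 510 and 551 TPM in P291L, and both of these overlapped shRPL3. NDUFS5 fell in D308N by 0.33 (SE 0.07, adjusted p 0.00109) and in D308V by 0.31 (adjusted p 0.00196), while the R343W value was 0.05 (adjusted p 0.647). NDUFA5, which sits on the matrix arm, read 75.9, 81.0 and 75.2 TPM in shRPL3 and fell in D308V, at 56.6, 61.3 and 55.1 TPM, by 0.42 (SE 0.07, adjusted p 0.000147). It also fell in D308N by 0.31 (adjusted p 0.00243) and in P291L by 0.25 (adjusted p 0.0115). NDUFA10, of the membrane arm, fell by 0.32 in D308N (77.5, 77.9 and 78.6 against 62.1, 63.0 and 61.6 TPM), and NDUFC1 by 0.37 in D308V (75.2, 84.1 and 75.4 against 59.7, 61.0 and 59.8 TPM).

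SDHA, already lower in shRPL3 than in shScramble, was lower again in the lines D308N, D308V and R343W. Its values there were 58.1, 55.4 and 57.6 TPM, 54.9, 55.1 and 58.7 TPM, and 58.4, 57.3 and 56.3 TPM, with changes of -0.23 (adjusted p 0.038), -0.25 (adjusted p 0.0257) and -0.22 (adjusted p 0.0425). All 9 lay below the lowest shRPL3 library at 64.8 TPM. P291L, at 60.5, 64.5 and 62.8 TPM, had a change of -0.10 that did not pass. In complex IV, COX6C, a membrane subunit, fell by 0.28 in D308N, 0.32 in D308V and 0.22 in P291L. COX7B, another membrane subunit, fell by 0.34 in R343W, and COX4I1 fell there by 0.27.

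NDUFB9 went opposite ways in 2 of the lines. Against 303, 320 and 290 TPM in shRPL3, P291L read 258, 251 and 253 TPM (-0.26, SE 0.06, adjusted p 0.00354) and R343W read 329, 357 and 353 TPM (0.18, SE 0.06, adjusted p 0.0326). D308N read 316, 329 and 322 TPM and D308V 304, 310 and 296 TPM, above all P291L libraries. The P291L call was lost with median-ratio scaling (-0.15) and the R343W call without the filter on low values and in several settings that left out 1 library. P291L also had a lower COX7A2L (-0.29, adjusted p 0.00497), lower NDUFV3 (-0.33, adjusted p 0.019) and higher NDUFA3 (0.32, adjusted p 0.0407).

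UQCRFS1 and ATP5F1C in D308N, D308V and R343W, NDUFA5, NDUFS5 and NDUFA10 in D308N, and NDUFA5, NDUFC1 and COX6C in D308V kept their calls in each of the 22 alternatives. Leaving out shRPL3 library 3 changed the counts to 4, 9, 8 and 4 for P291L, D308N, D308V and R343W, and with the kind term to 28, 29, 34 and 35. Markers of other cell types moved with these lines. The 10 fibroblast markers summed to 5011 to 5352 TPM in shRPL3, 5705 to 5791 TPM in P291L, and 4164 to 4760 TPM in D308N, D308V and R343W, and 5 smooth muscle markers summed to 355 to 369 TPM in shRPL3, 428 to 458 TPM in P291L, and 136 to 181 TPM in D308N, D308V and R343W. Of the smooth muscle markers TAGLN made up the greater part and DES was near 0 (median 0.181 TPM). The part of these markers in the members' changes was not tested.

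**Figure D3:**
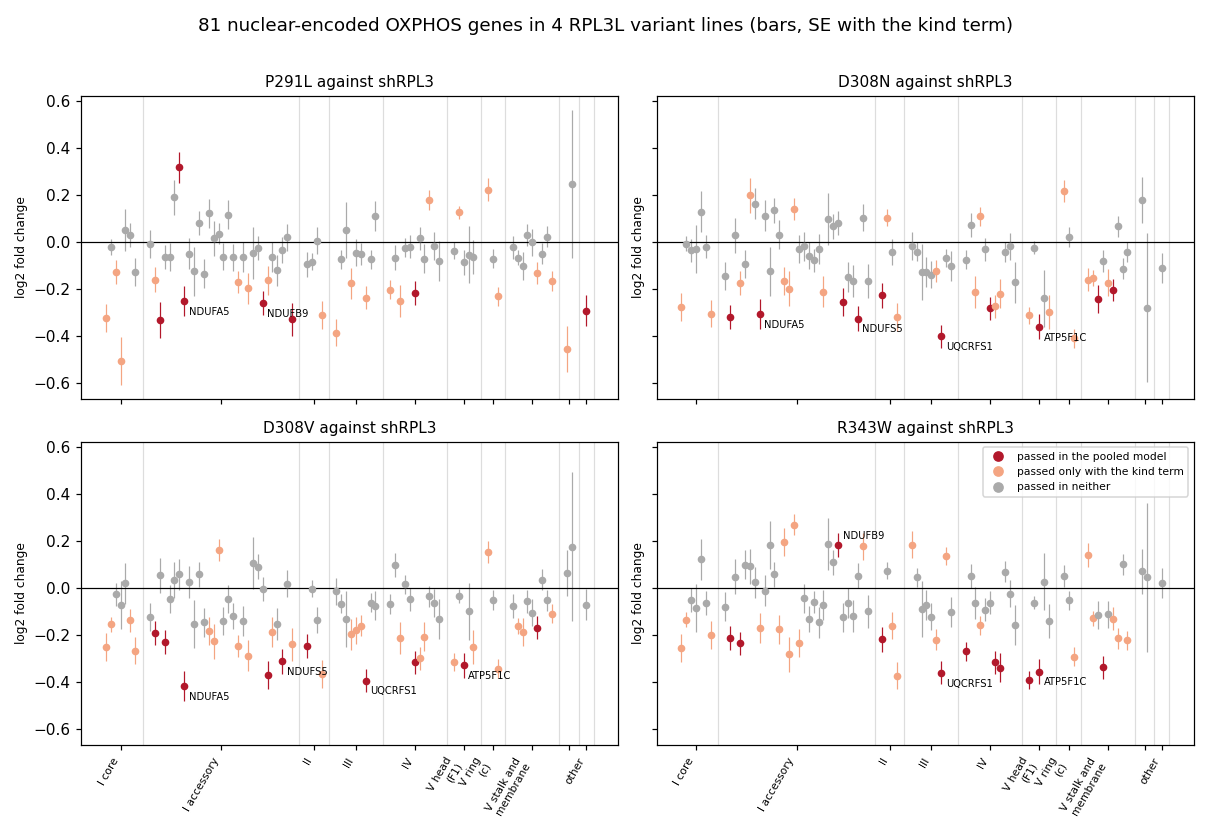
Log2 fold change against shRPL3 (log2(TPM + 1) scale) of the 81 genes by complex and part in P291L, D308N, D308V and R343W, 1 panel each, coloured as in the plot of the hairpin comparison, with standard errors with the kind term as bars. UQCRFS1 lies at -0.40, -0.40 and -0.36 in D308N, D308V and R343W and at -0.24 in P291L.

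D308N and D308V change the same residue. No member differed between them in the model of the groups alone, where 1.64% of all genes were called. There 2 members had an unadjusted p under 0.05, against 12.1% of all genes tested. Adding the kind term, 2 passed, both higher in D308N (4.07% of all genes were higher and 4.19% lower). Among them was NDUFB4, a membrane arm accessory subunit, at 186, 197 and 191 TPM in D308N against 162, 179 and 170 TPM in D308V (0.17, adjusted p 0.0294). Of the 13 mitochondrially encoded subunits, 12 were lower in D308N with the kind term, with a median of -0.35, and none passed without it.

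Wild-type RPL3L against shRPL3 asks what the muscle paralog adds to knockdown cells. RPL3 stood at 439 to 673 TPM in RPL3L-WT and 500 to 570 TPM in shRPL3, and its part was not tested. In the model of the groups alone 2 members rose and 34 fell (5.77% and 30.2% of all genes tested), with a median of -0.29 against -0.19 for all genes. Adding the kind term gave 1 higher and 17 lower (6.27% and 20.1%), and with median-ratio scaling the split was 4 and 6 (11.9% and 12.7%). With the term and that scaling together it was 7 and 3 (10.6% and 8.99%), so the direction of the balance turned over. Replicate 3 is the only RPL3L-WT library of the first kind. Without it that group holds only libraries of the second kind, and the groups-alone count was 64, 6 higher and 58 lower. That count takes in the difference between kinds, and the share of all genes is not given for this setting. Without shRPL3 library 3 the counts were 23 and, with the kind term, 14. In all, 13 members passed in both models, a count given without the share of all genes that did so and not set against other genes.

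CYC1, 1 of these, read 268, 260 and 283 TPM in shRPL3 and 123, 125 and 201 TPM in RPL3L-WT, where the first-kind library was the highest yet still below every shRPL3 library. The change was -0.89 (SE 0.22, adjusted p 0.0038) without the kind term and -0.39 (adjusted p 0.000116) with it, and this call held in each of the 22 alternatives. NDUFS1 read 102, 105 and 98.3 TPM in shRPL3 and 56.8, 53.9 and 86.5 TPM in RPL3L-WT (-0.65, adjusted p 0.00141, and -0.35, adjusted p 0.00038, with the term). UQCRFS1 read 28.9, 28.0 and 34.9 TPM in RPL3L-WT (-0.44, adjusted p 0.00125, and -0.26, adjusted p 0.00146). NDUFS7, a core subunit with the last iron-sulfur cluster before quinone, changed by -0.87 (adjusted p 0.00537) and -0.40 (adjusted p 0.0125). In the other direction ATP5PF, a peripheral stalk subunit, rose by 0.40 without the term and stood at 0.06 with it (adjusted p 0.426).

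The partners of these genes moved the other way or with them. Mitochondrially encoded subunits rose in 11 of 13 cases and fell in none, and with the kind term 10 were higher and 1 lower. MT-ND4 stood at 8744 ± 2588 TPM in RPL3L-WT against 4460 ± 110 TPM in shRPL3 (0.92, adjusted p 0.00369, and 0.41, adjusted p 6.58e-05, with the term). Of the 53 assembly factors 1 rose and 26 fell, and with the kind term 1 was higher and 17 lower. CYCS fell by 0.57 (adjusted p 0.00212) and with the term by 0.31 (adjusted p 0.00261).

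Against shScramble, in cells where RPL3L-WT was added to the RPL3 hairpin, 9 members rose and 26 fell (12.1% and 34.6% of all genes tested). With the kind term 15 were higher and 16 lower (15.6% and 29.1%). Median-ratio scaling gave 18 and 10 (21.7% each way), rescaling without the mitochondrially encoded entries 12 and 22 (14.9% and 30.4%), and the kind term with median-ratio scaling 28 and 6 (22.9% and 20.8%). The balance of the members thus turned over under median-ratio scaling, which moved all genes as well. Passing in both models were 20 members, and the share of all genes that did so is not given, so this count is not set against other genes. NDUFB10 read 244, 264 and 168 TPM in RPL3L-WT, all above the 121 to 133 TPM of shScramble (0.80, adjusted p 0.000153, and 0.46, adjusted p 8.91e-08, with the term). SDHA read 61.2, 54.2 and 69.8 TPM, all below shScramble (-0.53, adjusted p 5.35e-06, and -0.42, adjusted p 3.69e-06). NDUFS1 fell by 0.80 and with the term by 0.50, and ATP5F1A by 0.56 and 0.29, whereas NDUFS6 rose by 0.48 and 0.29. NDUFB10, NDUFS6, UQCR10, NDUFS1, ATP5MC3 and ATP5F1A kept their calls in each of the 22 alternatives.

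The 7 comparisons of a variant with RPL3L-WT ask what each substitution changes, and all share the RPL3L-WT libraries. The groups differed in more than the substitution: RPL3 stood at 439 to 673 TPM in RPL3L-WT, 1059 to 1686 TPM in R161W and 780 to 1246 TPM in T189M, and RPL3L at 3190 ± 535 TPM in RPL3L-WT and 5116 ± 143 TPM in D308N. The part of these levels in the members' differences was not tested. D308N had 20 higher and 6 lower (23.7% and 9.48% of all genes tested), D308V 14 and 7 (21.6% and 9.03%), and R343W 15 and 2 (24.5% and 9.19%). In the kind model these became 12 and 13 (17.5% and 12.8%), 6 and 17 (16.2% and 12.7%), and 14 and 15 (18.8% and 12.6%). With median-ratio scaling they became 10 and 15 (15.7% and 16.1%), 8 and 11 (15.3% and 14.6%), and 9 and 10 (16.2% and 15.7%). In the model of the groups alone R161W had 2 and 2 (12.6% and 4.07%) and G27D 2 and 1 (1.55% and 1.77%). P291L and T189M had none (2.75% and 1.8% of all genes called), with 38 and 5 members at an unadjusted p under 0.05, against 28.1% and 14.4% of all genes. In the kind model R161W had 6 and 8 (16.1% and 8.87%), G27D 10 and 2 (4.31% and 6.02%), T189M 5 and 6 (7.51% and 3.08%), and P291L 1 and 1 (0.825% and 1.16%). With the kind term and median-ratio scaling together the splits were 0 and 21 for R161W (10.2% and 15.3%), 1 and 15 for T189M (4.58% and 5.89%), 9 and 2 for G27D (4.25% and 6.81%) and 1 and 0 for P291L (1.03% and 1.17%). They were 3 and 20 for D308N (13.8% and 16.1%), 1 and 21 for D308V (14.1% and 15.1%), and 8 and 17 for R343W (15.3% and 15.6%). Leaving out RPL3L-WT library 3 leaves that group with libraries of the second kind only. The groups-alone counts were then 47 for P291L, 11 for G27D, 17 for R161W, 2 for T189M, 50 for D308N, 48 for D308V and 46 for R343W. They take in the difference between kinds as well, and shares of all genes are not given for this setting.

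CYC1 rose in D308N, D308V and R343W under every alternative run. It read 248, 295 and 259 TPM in D308N, 270, 267 and 265 TPM in D308V, and 293, 301 and 329 TPM in R343W, all above the 123, 125 and 201 TPM of RPL3L-WT. The changes were 0.87 (SE 0.22, adjusted p 0.00405), 0.87 (adjusted p 0.00415) and 1.07 (adjusted p 0.000661), and with the kind term 0.37, 0.38 and 0.57. P291L, at 203, 223 and 194 TPM, overlapped RPL3L-WT. In D308V, NDUFA5 fell by 0.34, and this call held in each of the 22 alternatives. NDUFB9 rose in R343W by 0.41 (adjusted p 2.26e-05) and with the kind term by 0.37.

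In G27D, NDUFA6, a matrix arm accessory subunit, read 165, 169 and 173 TPM against 126, 135 and 139 TPM in RPL3L-WT without overlap (0.34, adjusted p 0.00989, and 0.33 with the term). In R161W, NDUFB9 fell from 273, 249 and 261 TPM to 199, 236 and 213 TPM (-0.27, adjusted p 0.00336), and NDUFA5 by 0.20 (adjusted p 0.0438). In T189M, NDUFA12 passed with -0.22 (adjusted p 0.00634) with the kind term only.

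**Figure D4:**
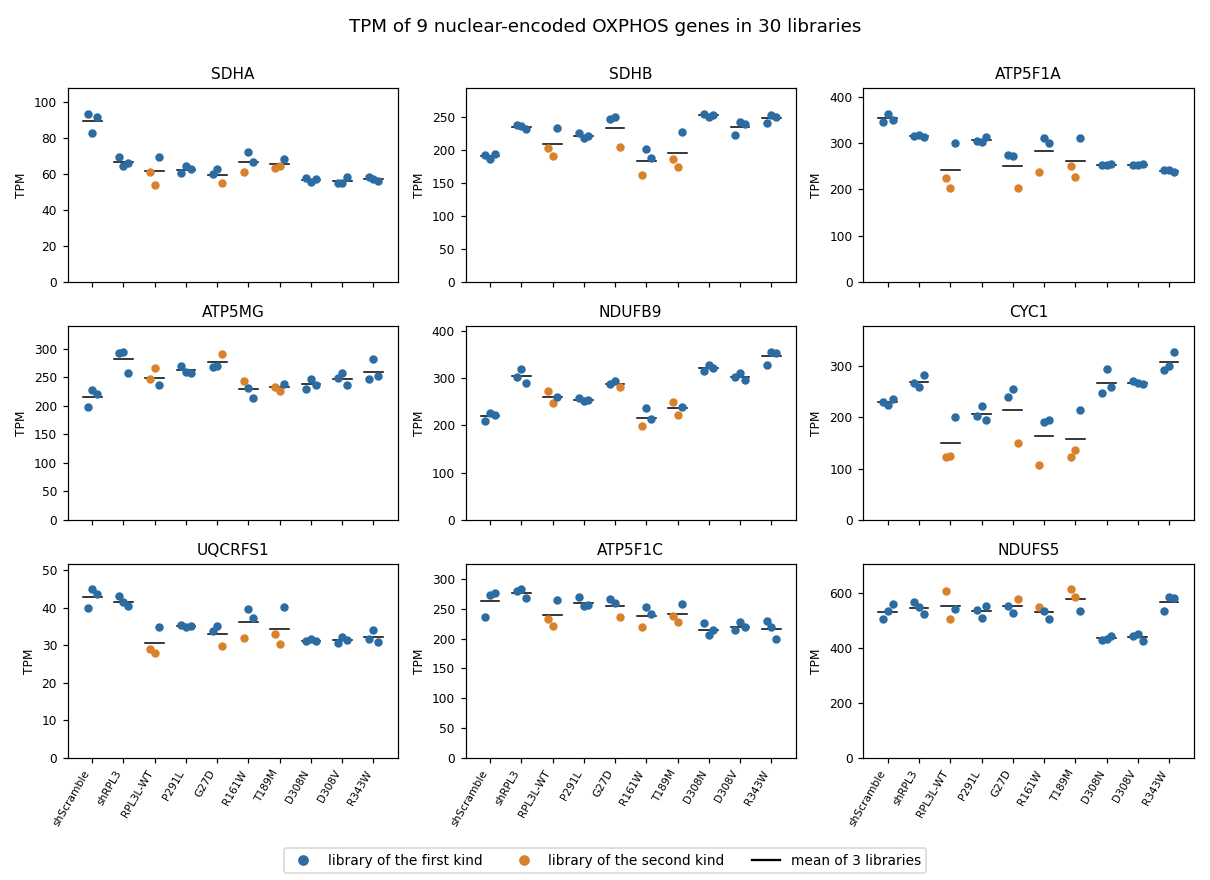
TPM (y axis) of SDHA, SDHB, ATP5F1A, ATP5MG, NDUFB9, CYC1, UQCRFS1, ATP5F1C and NDUFS5 in each of the 30 libraries by group (x axis), blue for the first library kind and orange for the second. SDHA in shScramble (82.9 to 93.8 TPM) lies above the libraries of shRPL3 (64.8 to 69.6 TPM), and CYC1 in RPL3L-WT is lowest in its 2 orange libraries.

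The 2 library kinds differed in most of these genes. Between kinds, with the group held fixed, 9 members were higher and 58 lower in the second kind (14.5% and 43.3% of all genes), with a median of -0.31 against -0.15 for all genes. With median-ratio scaling 17 were higher and 47 lower (23.6% and 27.2% of all genes). NDUFA2, an accessory subunit of the matrix arm, differed by -1.24: in T189M it read 37.8 and 41.6 TPM in the 2 libraries of the second kind and 94.9 TPM in the library of the first kind. UQCR11 (-0.98), SDHC (-0.98), NDUFB2 (-0.95) and COX8A (-0.94) followed, whereas UQCRB (0.60), ATP5MF (0.55), ATP5PF (0.51) and NDUFB10 (0.51) were higher. All 4 genes of complex II and all 3 of subunit c were lower. In RPL3L-WT and T189M, 2 of 3 libraries are of the second kind, so part of any difference from these groups cannot be told apart from the kind without the added term.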

How the data were processed

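Expression was measured by polyA RNA-seq in 30 whole-cell libraries of AC16 cells, 3 in each of 10 groups taken from the sample labels. The deposited values are TPM per gene, made by the authors. Per the submitters' processing notes the tools included kallisto, with bcl2fastq 2.19, bedtools and Bowtie. For the TPM, the build and annotation were not given in the sources used here. TPM holds no depth, so sequencing depth is unknown and no counting interval is given. Coordinates are from GENCODE 29 (GRCh38), matched by symbol for display only. The 12 nuclear libraries hold no member and were not used.

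The 14426 genes with a mean of at least 1 TPM were fitted on log2(TPM + 1) with limma 3.58.1 in R 4.3.3 (two-sided, robust eBayes with trend). Adjustment was Benjamini-Hochberg across these genes, at a threshold of 0.05. The table holds 60612 entries, of which 6 are constructs. Library kind came from the widest gap along the first principal component of 328 pseudogenes and was added as a term in the kind model. It was defined from the data and not from the labels. Alternatives were median-ratio scaling, rescaling without mitochondrially encoded, RPL3, RPL3L and construct entries, a pseudocount of 0.1, no filter on low values, a replicate block, fits of the 2 groups alone, and leaving out each library. The models were tested on simulated data.

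Named members passed the threshold without overlap between groups, up to 10 each way by fold change among shScramble, shRPL3 and RPL3L-WT and up to 5 elsewhere, with catalytic or defining subunits and paralogs added, and some named results are not reported here. Members, gene lists and tests were chosen with earlier results of these data known. Samples share replicate numbers across groups. Same-numbered libraries deviated together most clearly for T189M against RPL3L-WT (r of 0.19, 0.19 and 0.51), where each number also has the same library kind in both groups. All 3 r were also positive, but at most 0.0598, for P291L and D308V against RPL3L-WT and for D308V against shRPL3. The pairing comes from these correlations and not from the labels.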

Additional observations from a re-analysis of the deposited data

Results flagged for a closer look

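NDUFB9, an accessory subunit of the membrane arm of complex I, differed between 2 RPL3L variant lines compared with the same shRPL3 libraries. It fell in P291L and rose in R343W, and the test of the difference itself gave 0.44 on the log2 scale, R343W minus P291L (SE 0.06, limma adjusted p 7.08e-06, and 2.28e-07 with the library kind as a term). All 3 R343W libraries lay above all 3 P291L libraries. NDUFB9 and these 2 lines were picked after seeing the data, because the gene was called in opposite directions against shRPL3. A difference between the lines follows from that choice, so its p-value adds no separate support. The cause of the difference was not tested.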

How the results depend on the processing

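Of 95 named gene and comparison pairs, 29 kept their call in each of the 22 alternatives run and 41 in each setting that left out 1 library. By setting, the number that kept it was 95 with a pseudocount of 0.1, 91 with the replicate block, 84 after rescaling, 76 with the kind term, 75 with the kind term and block, 71 with median-ratio scaling, 64 without the filter on low values, 63 with the kind term and median-ratio scaling, 62 with libraries of the first kind only and 59 with fits of the 2 groups alone. Reversals were near 0: NDUFB6 (0.00113) and NDUFB4 (0.0273) in RPL3L-WT against shRPL3 with the kind term and median-ratio scaling, and ATP5PF in RPL3L-WT against shScramble (-0.000179) with the kind term and without shScramble 1. The settings with the kind term combined with scaling, a block or left-out libraries, and those on the first kind alone, were chosen after seeing the data. The cause of the changes in count was not tested.

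Counts of called members that moved by over 1.5 times were as follows. For shRPL3 against shScramble (13) they were 38 with the kind term, 7 without the filter, 34 with 2 groups, 35 with the kind term and scaling, and 39 with the first kind only. For RPL3L-WT against shRPL3 (36) they were 18 with the kind term, 10 with median-ratio scaling, 15 rescaled, 13 without the filter, 6 with 2 groups, 10 with the kind term and scaling, and 12 with the first kind only. For RPL3L-WT against shScramble (35) they were 18 with 2 groups and 21 with the first kind only. Against RPL3L-WT, P291L (0) gave 2 with the kind term and 1 with the kind term and scaling. G27D (3) gave 12 with the kind term, 1 with median-ratio scaling or no filter, 0 with 2 groups and 11 with the kind term and scaling. R161W (4) gave 14 with the kind term, 1 without the filter, 0 with 2 groups, 21 with the kind term and scaling, and 7 with the first kind only. T189M (0) gave 11 with the kind term, 1 with median-ratio scaling, 2 rescaled and 16 with the kind term and scaling. D308N (26) gave 15 without the filter, 7 with 2 groups and 17 with the first kind only, D308V (21) gave 11 and 6 for the first 2 of these, and R343W (17) gave 29 with the kind term and 6 with 2 groups. D308N against D308V (0) gave 2 with the kind term, 1 with scaling added and 3 with the first kind only.

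Against shRPL3, P291L (7) gave 27 with the kind term, 2 with median-ratio scaling, 4 without the filter, 29 with 2 groups, 21 with the kind term and scaling, and 27 with the first kind only. D308N (10) gave 32 with the kind term, 27 with 2 groups, 24 with the kind term and scaling, 25 with the kind term and without shRPL3 1 or without D308N 3, and 34 with the first kind only. D308V (10) gave 35, 31, 20 and 38 for these, and 6 with median-ratio scaling. R343W (11) gave 33, 27, 28 and 33, and 5 without the filter.

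With the replicate block alone no count of called members moved by over 1.5 times. With the kind term and the replicate block, the counts were 38 for shRPL3 against shScramble, 16 for RPL3L-WT against shRPL3, 1, 12, 14, 12 and 30 for P291L, G27D, R161W, T189M and R343W against RPL3L-WT, 2 for D308N against D308V, and 27, 32, 35 and 33 for P291L, D308N, D308V and R343W against shRPL3. For T189M against RPL3L-WT the block left 0 called without the kind term and moved 11 to 12 with it.

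Leaving out 1 library at a time gave ranges, with those of the kind model second: 7 to 10 and 34 to 36 for shRPL3 against shScramble, 8 to 64 and 11 to 18 for RPL3L-WT against shRPL3, and 16 to 51 and 23 to 31 for RPL3L-WT against shScramble. Against RPL3L-WT they were 0 to 47 and 0 to 1 for P291L, 0 to 11 and 8 to 14 for G27D, 1 to 17 and 4 to 13 for R161W, 0 to 2 and 4 to 13 for T189M, 9 to 50 and 18 to 29 for D308N, 8 to 48 and 17 to 22 for D308V, and 10 to 46 and 17 to 29 for R343W. D308N against D308V gave 0 to 0 and 1 to 2. Against shRPL3 they were 3 to 6 and 21 to 28 for P291L, 6 to 9 and 23 to 30 for D308N, 7 to 8 and 24 to 34 for D308V, and 2 to 5 and 26 to 35 for R343W. The high ends of the comparisons with RPL3L-WT came from leaving out RPL3L-WT library 3 in the model without the kind term. That leaves RPL3L-WT with libraries of the second kind only. Counts in this section are given without shares of all genes and are not set against other genes. A setting that leaves a group with fewer libraries assumes that it varies like the others.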
